A study of Gossypium hirsutum with 2 samples.

Results

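The genes described here are the late embryogenesis abundant (LEA) genes of Upland cotton (Gossypium hirsutum) that the cotton array names, namely Lea14-A (locus LOC107922715) and Lea5-D (locus LOC107916177). They were chosen as every probe set that the platform annotation gives to a single gene with an alias starting with Lea. The rule found 2 genes with 1 probe set each, of 520 genes that have a probe set assigned to them alone. Of the 24132 probe sets on the array, 23977 are for plant transcripts and the rest are controls. The gene table holds 3 loci with such an alias, and Lea5-A (LOC107896693) had 0 probe sets assigned to it alone. The rule uses no measured value.

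The samples were the third topmost leaves of field-grown plants of the cultivar Acala 1517-99. Drought-stressed plants had received no furrow irrigation and well-watered plants had been irrigated, and both were harvested 9 days after water was withheld from the stressed plots. The labels give an age of 9 weeks for both groups, which is longer than the time from planting to harvest in the same labels, and describe 3 field plots per treatment with 8 plants per replicate. The data are MAS5 signals, linear intensities per probe set, from 1 array of drought-stressed and 1 array of well-watered leaves. It is not stated whether RNA of the plots was pooled. Replicate error could not be measured with 1 array per group, so no test was run and each difference below describes this pair of arrays.

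LEA proteins are small proteins that accumulate in the embryo as a seed dries, and many of them are also made in leaves and roots that lose water. They are regarded as protectants of other proteins and of membranes under desiccation, and the hormone abscisic acid induces many of their genes. Lea5 and Lea14 were both described from cotton embryos and are atypical members, less hydrophilic than the classical LEA proteins. Lea14 belongs to the LEA_2 family, and Lea5 to the LEA_3 family, which in Arabidopsis includes the senescence-associated protein SAG21.

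Lea14-A gave a bright signal in leaf with or without irrigation. Its probe set, Ghi.6722.1.S1_s_at, measured 1594 on the drought array and 1364 on the well-watered array. These signals stood above those of 94.9% of plant probe sets in drought leaves and 94.1% in well-watered leaves, leaving 1220 and 1411 brighter probe sets. They were 20.4 times the plant median of the drought array, which was 78.3, and 18.0 times that of the well-watered array, which was 75.6. Among 324 probe sets of a single gene with an alias, 44 had a brighter mean signal than Lea14-A. The difference between the arrays was small beside this level, at 1.17-fold or 0.22 as log2 of drought over well watered.

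Lea5-D gave a dim signal on both arrays. Its probe set, Ghi.1970.1.S1_s_at, measured 44.7 on the drought array and 38.0 on the well-watered array. These signals stood above those of 34.7% and 31.9% of plant probe sets, and were 0.571 and 0.503 times the plant medians of the same arrays. The log2 difference was 0.23, or 1.18-fold, which on the linear scale was 6.7 signal units against 230 for Lea14-A. With the signals as deposited, the signal of each probe set was slightly greater on the drought array.

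The array carries 52 probe sets for reporter genes foreign to cotton, used here as a guide to the signal that arises where no plant transcript is matched. Whether their probes match any cotton transcript was not checked. A single reporter was very bright, at 16611 on the drought array and 13616 on the well-watered array, and was not taken as background. The others reached at most 186 on the drought array and 107 on the well-watered array, so Lea14-A exceeded all 51 of them on both. Lea5-D was exceeded by 16 of the 52 reporters on the drought array and by 14 on the well-watered array, the very bright one included. It was brighter than 36 and 38 of them, and the medians of the 52 were 17.1 and 12.2. Its signal lay within the range of the reporters on each array, and a Lea5-D transcript in leaf could not be told from background by this measure, so its ratio between the arrays does not show that the gene was higher in drought leaves. Lea5-D also fell below the minimum set here for a measurable probe set, a mean signal of 72.3, which is the median of plant probe sets.

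**Figure D1:**
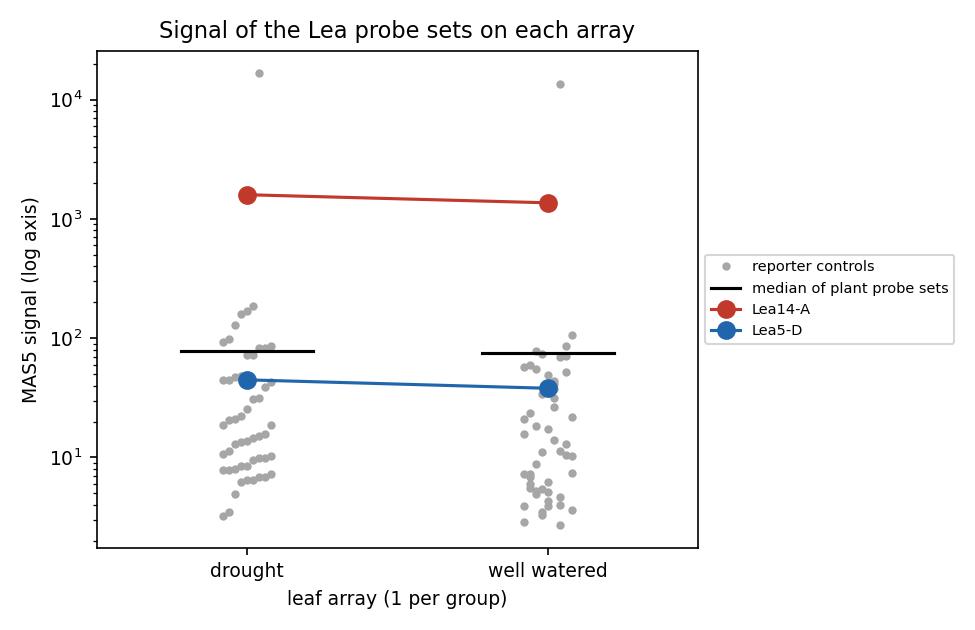
MAS5 signal on a log axis for the drought and the well-watered leaf array, 1 array per group, with Lea14-A in red, Lea5-D in blue, reporter controls as grey points and the median of plant probe sets as a black bar. Lea14-A, at 1594 and 1364, stands above all reporters but 1, and Lea5-D, at 44.7 and 38.0, lies among them and below the plant median.

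Signals of different probe sets depend on how well their probes bind, so the levels of the 2 genes are not set against each other as transcript amounts. Both IDs end in _s_at, the array's mark for probes shared by more than 1 transcript of a family. A signal named Lea5-D may therefore include the homoeologous copy Lea5-A, and Lea14-A may include a copy of its own, and these data cannot tell such copies apart. In RNA of whole leaves, fewer cells of a type and less RNA per cell cannot be told apart either. The leaf label was checked with the rubisco activase gene RCA1, which measured 20148 in drought and 16617 in well-watered leaves (log2 difference 0.28). It was the only match of the marker list for green leaf and stood above 99.98% of plant probe sets in drought and 99.96% in well-watered leaves. Of the lists for other cells, those for seed and embryo, phloem and vessels, and guard cells matched 0 probe sets. The list for trichomes and fibres matched 28 probe sets of 18 genes, with signals of 4.9 to 2751 in drought leaves and 3.9 to 2204 in well-watered leaves. All but E6 and HOX3 were matched by aliases starting with FLA or EXPA, which name whole gene families. Of the 28, 16 were higher (57.1%) and 12 lower in drought leaves, against 51.7% higher over all plant probe sets. A 2-fold difference was reached by 7 (25%), close to the 24.4% of all plant probe sets. The median log2 difference was 0.16, against 0.02 over all. These shares include dim probe sets, since only 14 of the 28 were measurable. They also describe mainly the FLA and EXPA families, while E6 and HOX3 were both lower in drought leaves. HOX3 measured 66.8 in drought and 104 in well-watered leaves (-0.64), with 12 and 2 of the 52 reporters brighter. Of the measurable ones, E6 (-1.23) and a FLA6 probe set (-1.03) were at least 2-fold lower in drought leaves. A FLA14 probe set (1.28) was at least 2-fold higher. Each of these had a signal within the background range on the array where it was dimmer. E6 at 92.3 and this FLA6 probe set at 68.7 in drought leaves had 6 and 12 of the 52 reporters brighter. This FLA14 probe set at 57.8 in well-watered leaves had 8 brighter. Brighter probe sets of FLA6 and FLA14 gave 0.20 and 0.32. No other of the 14 measurable ones on the list reached 2-fold, and over all measurable plant probe sets 4.38% did. The part of trichomes and fibres in the Lea values was not tested.

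The next comparison asked how the difference of each Lea gene stood among plant probe sets of like signal. For each gene these were the 500 plant probe sets nearest in mean log2 signal, without the Lea probe sets. Neither Lea gene reached a 2-fold difference. Across the array, 4.38% of 11989 measurable plant probe sets and 24.4% of all 23977 differed at least 2-fold in either direction. Of the measurable ones 1.82% were higher and 2.56% lower in drought leaves, and of all plant probe sets 12.5% and 11.8%. The share depended strongly on signal, at 37.4% in the class that holds Lea5-D and 0.375% in the brightest class, which holds Lea14-A, when plant probe sets were divided into 10 equal classes of mean signal.

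Probe sets of like signal to Lea14-A had mean signals from 1207 to 1802. Their log2 differences had a median of 0.01, with a 5th percentile of -0.48 and a 95th percentile of 0.46. Of the 500, 3 differed at least 2-fold, 0.6% in all, with 1 higher and 2 lower in drought leaves. Lea14-A was more positive than 405 of them (81.0%), and 173 (34.6%) had a difference of larger size in either direction. The excess of Lea14-A in drought leaves was thus inside the usual spread for its signal, on the upper side of it.

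Probe sets of like signal to Lea5-D had mean signals from 39.5 to 43.0. Their log2 differences had a median of 0.09 and ran from -1.74 to 1.82 between the 5th and 95th percentiles, equal to 3.35-fold lower and 3.53-fold higher in drought leaves. Of these, 179 (35.8%) differed at least 2-fold, 93 higher and 86 lower. Lea5-D was more positive than 272 of 500 (54.4%), and 424 (84.8%) had a difference of larger size. Its difference was close to the middle of this distribution. A change of Lea5-D of about 3-fold either way would still have lain inside the 5th to 95th percentile range for its signal.

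**Figure D2:**
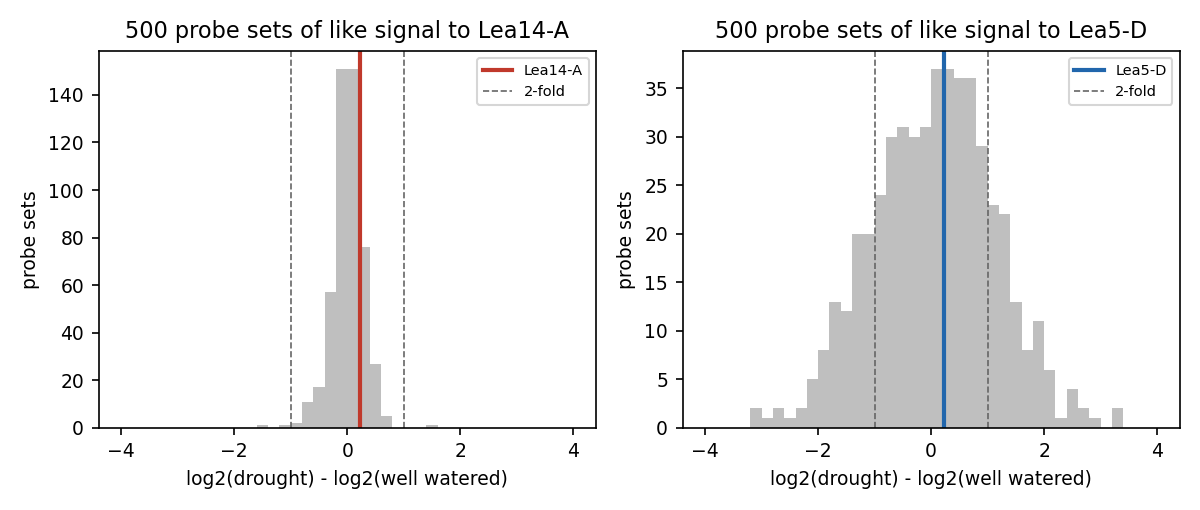
Numbers of probe sets by log2 difference, drought minus well watered, among the 500 plant probe sets nearest in mean signal to Lea14-A (left) and to Lea5-D (right). The coloured line is the Lea gene and the dashed lines mark 2-fold; Lea14-A at 0.22 lies on the upper side of a narrow distribution and Lea5-D at 0.23 near the middle of a wide one.

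**Figure D3:**
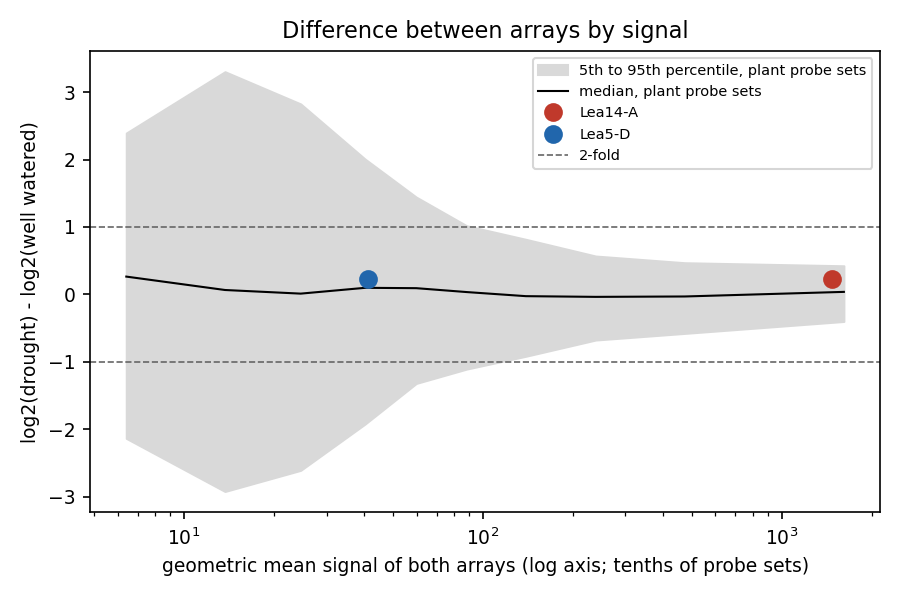
Log2 difference, drought minus well watered, against the geometric mean signal on a log axis; the grey band joins the 5th and 95th percentiles and the black line the medians of 10 equal classes of plant probe sets. The band narrows with signal, from -1.92 to 2.01 in the class of Lea5-D (blue) to -0.40 to 0.42 in that of Lea14-A (red), and both genes lie inside it.

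The direction of both small differences depended on how the arrays were scaled to each other. The hybridisation spike-ins, bacterial and phage transcripts added in known amounts, were represented by 27 probe sets. All 27 were brighter on the drought array, by 0.05 to 0.40 on the log2 scale with a median of 0.25. They read only the transcripts bioB, bioC, bioD and cre, so they are not 27 independent measures of this offset between the arrays. Set against them, Lea14-A stood at -0.02 and Lea5-D at -0.01, so neither was higher in drought leaves on that scale. On the same scale the median of all plant probe sets was -0.22, against 0.02 as deposited, so both Lea genes stayed above that median. Since this scaling moves every probe set by the same amount, the positions of Lea14-A and Lea5-D among probe sets of like signal stayed at 81.0% and 54.4%. The share of like-signal probe sets with a difference of larger size did change, to 96.2% for Lea14-A, against 34.6% as deposited, and to 98.8% for Lea5-D, against 84.8%. With the other scalings Lea14-A ranged from 0.20 to 0.22 and Lea5-D from 0.14 to 0.21, all positive.

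**Figure D4:**
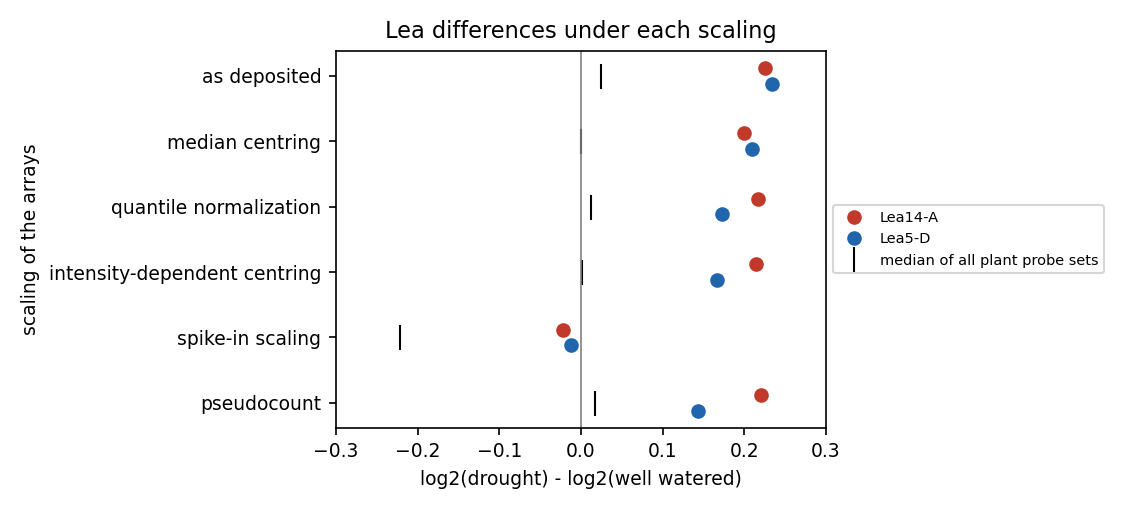
Log2 difference, drought minus well watered, of Lea14-A (red) and Lea5-D (blue) under 6 ways of scaling the arrays, with the median of all plant probe sets as a black tick. Both genes lie between 0.14 and 0.23 under 5 of them, and at -0.02 and -0.01 when scaled to spike-ins, where the plant median is -0.22.

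RNA quality controls are given beside these values because they differed between the arrays. The ratio of 3-prime to 5-prime signal of the actin control was 4.09 on the drought array and 14.1 on the well-watered array, and that of the ubq11 control was 10.2 and 5.80. The part of RNA quality in the differences of Lea14-A and Lea5-D was not tested.

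The authors' deposited table of 110 probe sets that they list as differentially expressed holds 0 of the 2 Lea probe sets. It covers 0.456% of the array, so the absence of a given pair of probe sets from it is no result about them. How its probe sets were selected is not stated.

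The named genes whose signals on both arrays were most like those of each Lea gene were found by distance over the 2 log2 signals, among 323 probe sets of other named genes. For Lea14-A the nearest was Aux2, an auxin-related gene by its alias, with 1568 in drought and 1418 in well-watered leaves (log2 difference 0.14, distance 0.0611). Next came the adenine nucleotide translocator gene ANT1/CANT1 with 1547 and 1524 (0.02), the elongation factor gene EF1A7/EF1A8 with 1395 and 1263 (0.14), the proteasome subunit gene psmB1 with 1732 and 1619 (0.10), and the expansin gene EXPA3D with 1608 and 1685 (-0.07). All 5 had a smaller log2 difference than the 0.22 of Lea14-A, but they were picked by the same 2 signals, so this is no separate result. For Lea5-D the nearest was the fatty acid synthesis gene KAS2-1/KASII, with 43.2 and 35.8 (0.27, distance 0.0991). It was followed by the transcription factor gene NAC5/NAC8 with 44.8 and 32.3 (0.47) and a probe set of the expansin gene EXPA4 with 42.2 and 31.9 (0.40). Then came the chalcone synthase gene CHS6 with 51.1 and 46.8 (0.13), and a probe set of the arabinogalactan protein gene FLA19 with 37.2 and 32.0 (0.22). The other EXPA4 probe sets were dimmer and went the other way (-0.58 and -0.27). Those of FLA19 went both ways (0.34 and -0.38). With 2 arrays, such nearness says only that the signals were alike.

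Other genes of drying seeds and of water stress were looked up to set the Lea genes in context. Of 5 lists, for LEA proteins and dehydrins by description, abscisic acid, compatible solutes and chaperones, water channels, and seed storage and oil bodies, 1 matched a named probe set. That was the aquaporin gene NIP6.1, a membrane channel, at 117 in drought and 106 in well-watered leaves (log2 difference 0.15, under 2-fold). On the same arrays 5 and 2 of the 52 reporters were brighter, so its signal too was within the background range. Genes could be looked up by alias only, and a list with 0 matches says nothing about the signal of its genes.

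Seed storage genes were therefore read from their cotton aliases, after their values had been seen. Of 6 probe sets from 5 genes, 1 was measurable, 3 were higher and 3 lower in drought leaves, 2 differed at least 2-fold, both of them dim, and the median log2 difference was -0.0034, against 0.02 over all plant probe sets. Of all plant probe sets 24.4% differed that much, and 37.4% to 61.8% in the classes of dim signal from 9.79 to 49.8, so the count is no result about seed genes. The measurable one belonged to LegB, a legumin storage globulin gene, with 260 in drought and 202 in well-watered leaves (0.36). A second, dimmer LegB probe set went the other way, with 11.7 and 24.0 (-1.04). The IDs of both LegB probe sets and of vicB_At mark orientation A, whereas both Lea IDs mark S, so the A probe sets may not read the coding strand.

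The remaining seed genes, like Lea5-D, were below the measurable minimum. MatP7, an oleosin gene of oil bodies, measured 70.3 in drought and 42.0 in well-watered leaves (0.74). Mat5-D, a 2S albumin storage protein gene, measured 31.3 and 40.4 (-0.37), and the vicilin gene vicB_At 5.8 and 8.0 (-0.46). LegA, another legumin gene, measured 51.0 in drought and 8.9 in well-watered leaves, a log2 difference of 2.52, and 12 and 30 of the 52 reporters were brighter than it on the same arrays. Lea14-A and the brighter LegB probe set lay above all reporters but 1 on both arrays, while Lea5-D and the other 5 seed probe sets lay within the range of the reporters.

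**Figure D5:**
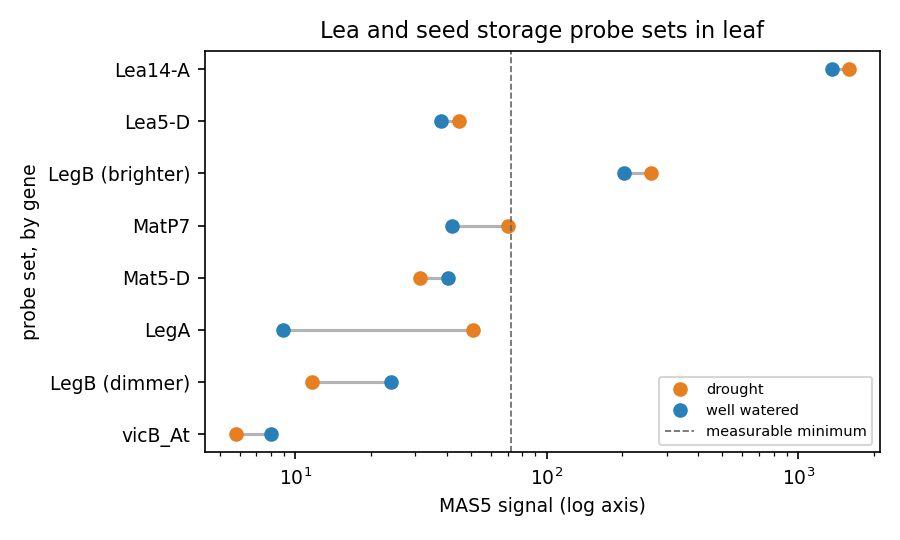
MAS5 signals on a log axis in drought leaves (orange) and well-watered leaves (blue) for the 2 Lea probe sets and 6 seed storage probe sets, with the measurable minimum of 72.3 as a dashed line. Lea14-A and the brighter LegB probe set lie above the line on both arrays, and the other 6 lie below it on both.

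Cotton genes named for drought induction were likewise read from aliases after their values had been seen. Di19-2 of the drought-induced 19 zinc-finger proteins measured 303 in drought and 253 in well-watered leaves, a log2 difference of 0.26, under 2-fold. Di19-1 measured 25.2 and 12.1 (1.06), with 21 and 26 reporters brighter than it, so that its ratio rests on signals within the background range.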

How the data were processed

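Leaf RNA was hybridised to the Affymetrix cotton array, 1 array per group, assigned by sample titles. Per the submitters' processing notes, the authors used GCOS and MAS5 to make the deposited intensities, which are on a linear scale; no version is stated. Both arrays had a 2% trimmed mean of 250.09, so they had been scaled alike, which lets signals be compared only relative to the whole array. Software here was Python 3.11.15 with numpy 2.4.6, pandas 2.3.3, statsmodels 0.14.6 and matplotlib 3.10.9. The difference was log2(drought) minus log2(well watered) without pseudocount, and 155 control probe sets were left out. The annotation assigns 697 probe sets to a single gene, 46 to several and 23234 to none, and gene aliases are those of RefSeq for Gossypium_hirsutum_v2.1. No test was possible. The members, lists and the minimum were chosen with earlier results of these data known. Alternatives were other scalings (median, quantile, lowess with span 0.3, spike-ins), a pseudocount of 26.4, other sets for ranking, other windows and other thresholds. The rule for named genes took every Lea probe set, the 5 nearest named probe sets to each, and up to 6 measurable members of each of 5 pathway lists. RCA1 came from a marker list. The seed storage and Di19 genes lie outside the rule, were chosen after their values were seen and are given whether measurable or not. Protein and promoter sequences were not used here. On simulated data with known shifts, the median and lowess scalings and the wider spread of dim like-signal probe sets were tested. The simulation itself gave dim probe sets the wider spread, so that part checked only the code and says nothing about the spread in these data. The spike-in, quantile and pseudocount scalings, the ranks and the list counts were not tested on simulated data.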

Additional observations from a re-analysis of the deposited data

How the results depend on the processing

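No paired analysis was possible because each group has 1 array. The log2 differences of Lea14-A and Lea5-D moved by less than the SD of their like-signal probe sets under all 5 alternative scalings. Those SDs, 0.28 and 1.08, exceed the differences of 0.22 and 0.23 themselves. A difference could thus be lost and still move by less than the SD, so this limit cannot show that the differences are stable. Both turned slightly negative with spike-in scaling, and neither had passed 2-fold. The position of a signal depended on the probe sets it was ranked among. Lea14-A in drought leaves stood at 93.8% among probe sets designed from Gossypium hirsutum, 85.5% among those of a single gene and 96.8% without _x_at or _s_at probe sets, and in well-watered leaves at 92.8%, 84.6% and 96.2%. Lea5-D stood at 28.0%, 26.1% and 37.9% in drought leaves and at 25.5%, 24.2% and 35.0% in well-watered leaves. At 1.5-fold, 4.4% of probe sets of like signal to Lea14-A and 60.4% of those to Lea5-D passed, and at 3-fold 0 and 13.8% did. With a window of 1000, 0.3% of those of like signal to Lea14-A passed 2-fold, and the other windows tried gave 0.5 to 0.6%. The single list match higher in drought leaves, NIP6.1, gave a count of 0 with the 75th percentile filter and 0 with spike-in scaling. No alternative from the smaller deposited list was run, since it holds neither Lea probe set. Signal over background limits Lea5-D, and the number of arrays limits both genes.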
